A study of Mus musculus with 14 samples.

Results

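Nipal4, Hhatl, Padi2, Tmprss2, Mfi2 and Zfp503 are 6 of the 35976 gene symbols counted in sorted Lfng-EGFP+ supporting cells (SCs) of the mouse cochlea. They were selected on values of these same counts, the RPM of CompE against DMSO libraries, because the level was higher with compound E (CompE) at P0 and little or not so at P6. The rule set no numerical limit, and all 6 symbols were found in the tables of both ages. Since the differences between CompE and DMSO at each age chose the genes, those values are given below as a description, with no p-value, and counts of the genes called are given only beside the share over all genes.

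Cochleae of Lfng-EGFP mice, a transgenic reporter line, were kept in culture with 2 μM CompE, an inhibitor of γ-secretase, or with as much DMSO alone, for 24 hours. GFP-positive cells were sorted from pooled cochleae and their poly(A) RNA was sequenced. There were 4 libraries with CompE and 4 with DMSO at P0 (cochleae taken at P0-P1), and 3 with each at P6, all of one genotype. The labels place P0 replicates 1 and 2 in batches 1 and 2, P0 replicates 3 and 4 in batch 3, and the P6 replicates in batches 4, 5 and 6. No batch held both ages. The CompE and DMSO libraries of one replicate number share a batch and are taken here as a pair. For P0 replicates 3 and 4, all in batch 3, the match rests on the replicate number alone. Nothing states that replicates came from separate animals, so p-values measure the spread between these libraries, which may be technical.

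Notch receptors are cut by γ-secretase after ligand binding, and the freed intracellular domain joins the DNA-binding protein RBPJ to switch on repressors of the Hes and Hey families. In the newborn organ of Corti these repressors keep SCs from the hair cell (HC) fate that Atoh1 drives, and SCs lose much of their ability to convert in the first postnatal week. None of the 6 genes is a classical component of the Notch pathway. Padi2 encodes a calcium-dependent enzyme that turns arginine of proteins into citrulline, and Tmprss2 a serine protease anchored in the cell membrane. Hhatl belongs to the membrane-bound O-acyltransferase (MBOAT) family and resembles Hhat, the enzyme that attaches palmitate to hedgehog proteins. Nipal4, also called ichthyin, encodes a membrane protein of the NIPA family of magnesium transporters and is known from the skin barrier. Mfi2, now named Meltf, encodes melanotransferrin, an iron-binding relative of transferrin held at the cell surface. Zfp503, also called Nolz1, encodes a zinc finger repressor of the NET family that works with Groucho co-repressors.

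In the GENCODE annotation of GRCm38 the 6 genes lie on 5 chromosomes. Nipal4 spans chr11:46148155-46166508 on the minus strand, Hhatl chr9:121784016-121792507 on the minus strand and Padi2 chr4:140906344-140952586 on the plus strand. Tmprss2 spans chr16:97564682-97611195 on the minus strand, Mfi2 (as Meltf) chr16:31878810-31899020 on the plus strand and Zfp503 chr14:21983959-21989601 on the minus strand. Padi2 overlaps a small nuclear RNA gene, Gm26226, and an antisense gene, Gm13031, so its counts are uncertain to the extent that reads were shared, because the use of strand in counting is not given in the sources used here. The other 5 overlap no annotated gene.

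Promoter windows of 300 bases (250 before and 50 after each start, RefSeq, GRCm38.p6) were matched for 6 of the 6 genes and searched on both strands for letters linked to this pathway. The E-box CAGCTG, of the kind that Atoh1 binds, was in the window of 1 gene, Nipal4, and in 16.3% of 32851 windows over all genes. The looser E-box CANNTG, which includes CAGCTG, was in those of Nipal4 and Hhatl and in 72.31% of all windows. CACGNG, the site class of Hes and Hey proteins, was in the windows of Nipal4 and Hhatl and in 27.48% of all windows. TGGGAA, the core of the RBPJ site, was in those of Hhatl and Tmprss2 and in 25.56% of all windows. Padi2, Mfi2 and Zfp503 held none of these letters in their windows. The stretches that hold such letters upstream of every annotated exon of their gene are shown 5′ to 3′, with the matches in capitals, so that a reader can see how far the members differ there. They are chr11:46166509-46166609 (minus strand) for Nipal4, chr9:121792508-121792757 (minus strand) for the upstream start of Hhatl and chr16:97611196-97611445 (minus strand) for Tmprss2.
Nipal4: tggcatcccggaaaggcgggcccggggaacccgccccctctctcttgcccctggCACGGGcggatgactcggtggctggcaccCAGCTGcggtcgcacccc
Hhatl: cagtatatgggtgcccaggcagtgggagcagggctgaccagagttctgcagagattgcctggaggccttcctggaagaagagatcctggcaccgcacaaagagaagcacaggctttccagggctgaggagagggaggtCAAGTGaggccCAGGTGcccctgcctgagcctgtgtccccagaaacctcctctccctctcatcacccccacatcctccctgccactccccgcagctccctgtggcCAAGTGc
Tmprss2: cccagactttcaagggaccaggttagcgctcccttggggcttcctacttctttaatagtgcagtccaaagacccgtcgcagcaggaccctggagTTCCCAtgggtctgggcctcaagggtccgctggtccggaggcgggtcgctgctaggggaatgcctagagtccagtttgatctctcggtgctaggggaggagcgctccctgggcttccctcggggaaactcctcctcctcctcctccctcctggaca
In Nipal4 the CACGNG match lies 196 bases and the CAGCTG match 167 bases before the RefSeq start. In Hhatl the CANNTG matches lie 112, 101 and 7 bases before that start. The CACGNG and TGGGAA matches of Hhatl are not within the bases upstream of every annotated exon. Hhatl has 2 windows, while the shares over all genes count single windows. In Tmprss2 the match is TTCCCA, the reverse complement of TGGGAA, 156 bases before the start. These matches are descriptions of the letters and were not tied to binding or to the counts.

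Library totals ran from 19415066 to 44430063 counts on genes over the 14 libraries, and the 6 genes were covered by at least 33 counts in each. Levels are given as RPM, the count of a gene divided by its library total and scaled to 1000000 reads. In bulk libraries fewer cells of a type and less RNA per cell cannot be told apart. The known Notch targets on the list (Hey1, Heyl, Hes1, Hes5, Lfng, Hey2 and Nrarp) together held 1069 to 1571 RPM with CompE and 3681 to 6240 RPM with DMSO at P0, and 777 to 1597 RPM against 1724 to 3510 RPM at P6. Lfng, whose regulatory DNA drives the reporter used for sorting, had a log2 difference of -1.67 at P0 (SE 0.338, adjusted p = 0.0241 by edgeR's quasi-likelihood test with Benjamini-Hochberg adjustment), so that a change in which cells pass the gate and a change within cells cannot be told apart. Summed over 12 genes, SC markers held 5505 to 11110 RPM in each library, of which Gjb2 alone held 1141 to 4138 RPM. Single SC markers went both ways with age, as given below. The P6 libraries of replicate 3 stood apart with the highest summed level of 8 mesenchyme markers, 3384 RPM with CompE and 4083 RPM with DMSO, against 897 to 2467 RPM in the other P6 libraries. They also had the highest P6 sums of 21 HC markers (2166 and 1963 RPM, against 705 to 1364 RPM) and 6 macrophage markers (81.7 and 33.6 RPM, against 4.03 to 13.2 RPM). Their sums of the 12 SC markers were the lowest at P6, at 5505 and 6490 RPM, against 7587 to 10220 RPM. The part of this in the P6 values was not tested.

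Padi2 was the most abundant of the 6 genes. At P0 it stood at 880.3, 1110, 699 and 799 RPM in CompE replicates 1 to 4 and at 233, 220.2, 225 and 186 RPM in the DMSO replicates, and no library of one treatment reached the other. At P6 it stood at 1007, 1074 and 1202 RPM with CompE and at 725, 999 and 1306 RPM with DMSO, where the treatments overlapped. Within pairs the ratio of CompE to DMSO was 3.10 to 5.04 at P0 and 0.921 to 1.39 at P6, where it was above 1 in 2 of 3 pairs. The fitted log2 difference was 1.98 (SE 0.164) at P0 and 0.13 (SE 0.218) at P6.

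Tmprss2 was measured at P0 at 134, 115, 138 and 94.5 RPM with CompE and at 42.6, 42.8, 56.0 and 33 RPM with DMSO. At P6 it stood at 186, 239 and 155 RPM with CompE and at 221, 217 and 184 RPM with DMSO. The treatments were apart at P0 in all 8 libraries and overlapped at P6, where CompE was higher in 1 of 3 pairs. Pair ratios ran from 2.46 to 3.15 at P0, the narrowest spread among the 6 genes on the log scale, and from 0.843 to 1.10 at P6. The fitted log2 difference was 1.42 (SE 0.180) at P0 and -0.08 (SE 0.215) at P6.

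Hhatl varied most between P0 DMSO libraries. At P0 it stood at 32.3, 66.2, 74.4 and 52.1 RPM with CompE and at 4.01, 7.44, 17.3 and 7.46 RPM with DMSO, and replicate 3 was the highest and replicate 1 the lowest in both treatments, with no overlap between them. At P6 its level was 304, 322 and 323 RPM with CompE and 268, 292 and 320 RPM with DMSO, an overlap over a narrow range. Pair ratios were 4.29 to 8.90 at P0, with the lowest ratio in the pair whose DMSO level was highest, and 1.01 to 1.14 at P6, where all 3 pairs were above 1. The fitted log2 difference was 2.59 (SE 0.447) at P0, and 3.12 when P0 DMSO replicate 3 was left out, against 0.12 (SE 0.132) at P6.

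Nipal4 had the largest single pair ratio and, per transcript length, the lowest mean level of the 6 genes in 3 of the 4 groups, all but P6 CompE. At P0 it stood at 22.2, 7.52, 12.4 and 9.50 RPM with CompE and at 2.19, 2.00, 1.05 and 1.25 RPM with DMSO, the latter from 33 to 80 counts per library. At P6 it stood at 5.69, 10.4 and 2.84 RPM with CompE and at 3.21, 4.32 and 3.25 RPM with DMSO. The treatments did not overlap at P0 and did so at P6, where replicates 1 and 2 were higher with CompE and replicate 3 was lower. Pair ratios were 3.76 to 11.8 at P0 and 0.874 to 2.41 at P6. Its fitted log2 difference of 2.94 (SE 0.366) at P0 and 0.84 (SE 0.543) at P6 made it the member with the largest P6 value, which fell to 0.22 without P6 CompE replicate 2 and was 1.21 without P6 CompE replicate 3.

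Mfi2 had the smallest P0 difference of the 6 genes. Its P0 levels were 64.6, 72.4, 75.9 and 59.0 RPM with CompE and 24.1, 31.0, 35.2 and 20.9 RPM with DMSO, with no overlap. Its P6 levels were 59.7, 114 and 109.6 RPM with CompE and 55.1, 125 and 129 RPM with DMSO, so that replicate 1 of both treatments lay well under replicates 2 and 3. Pair ratios were 2.16 to 2.83 at P0 and 0.852 to 1.08 at P6, where 1 of 3 pairs was above 1. The fitted log2 difference was 1.25 (SE 0.189) at P0 and -0.11 (SE 0.378) at P6, and the P6 value changed sign in 3 of 6 fits that left out 1 library.

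Zfp503 was the only transcription factor among the 6. Its P0 levels were 32.5, 20.4, 33.2 and 40.7 RPM with CompE and 9.54, 4.41, 8.35 and 9.27 RPM with DMSO, with replicate 2 lowest in both treatments and no overlap. At P6 it stood at 9.79, 4.95 and 7.43 RPM with CompE and at 10.2, 4.25 and 6.70 RPM with DMSO, again with replicate 2 lowest in both. Pair ratios were 3.40 to 4.63 at P0 and 0.958 to 1.16 at P6. The fitted P6 log2 difference was 0.08 (SE 0.416).

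**Figure D1:**
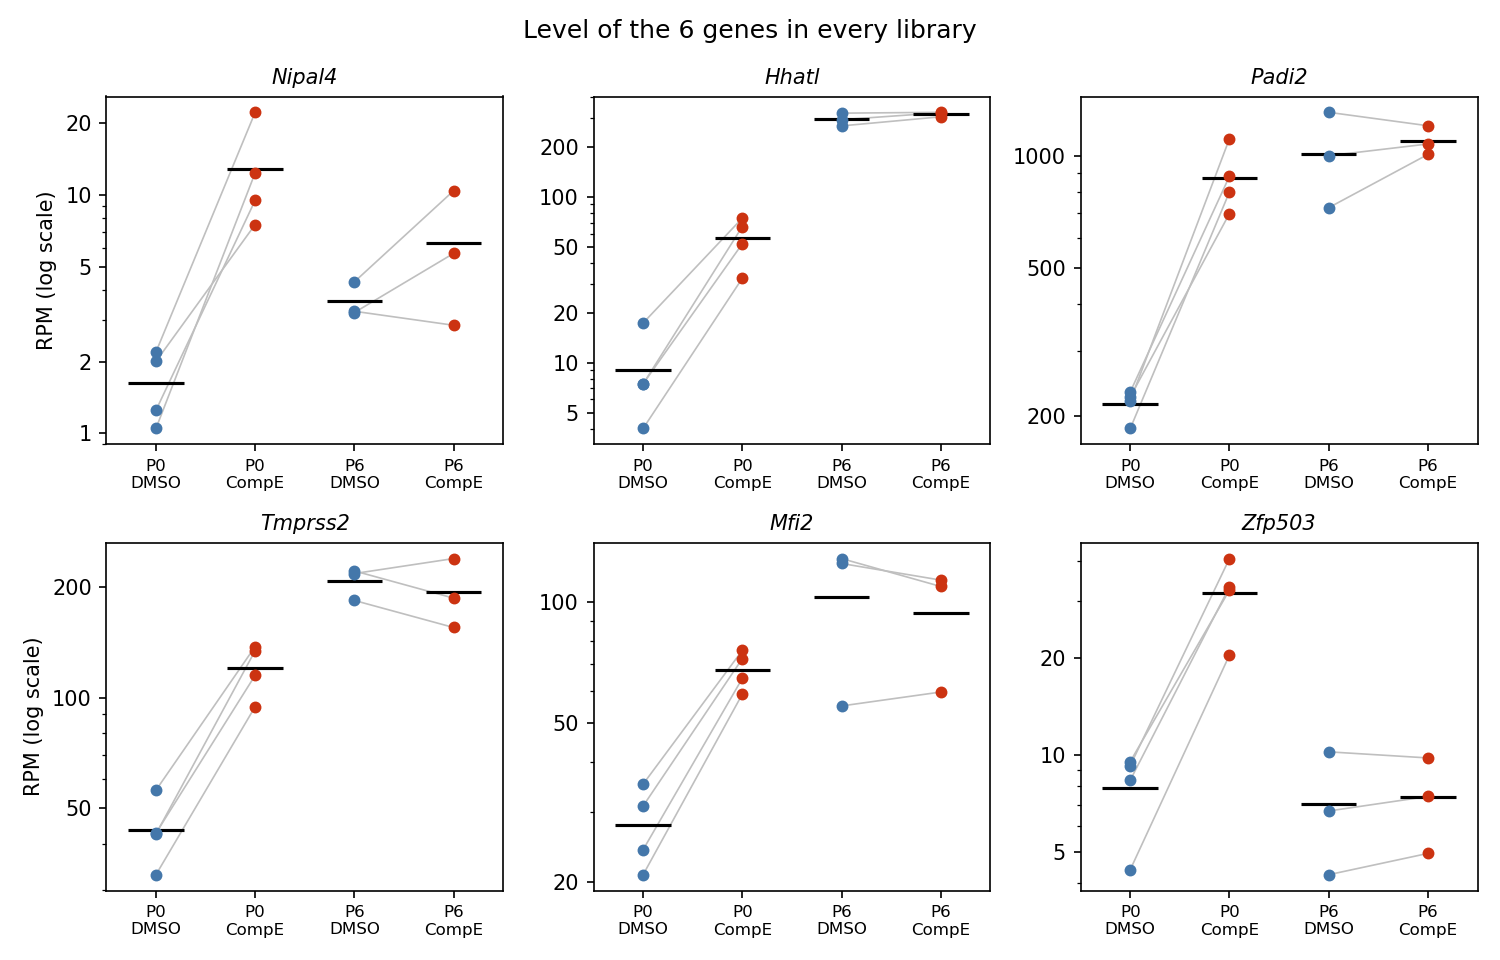
Level of each of the 6 genes in RPM on a log scale (y axis) in the DMSO (blue) and CompE (red) libraries at P0 and P6 (x axis), 1 point per library, with grey lines joining the pairs of one replicate number and black bars at the group means. At P0 every CompE library lies above every DMSO library for all 6 genes, and at P6 the treatments overlap for all 6.

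By construction of the choice, 6 of 6 genes had every P0 CompE library above every P0 DMSO library, as did 5.13% of the 15937 genes tested at P0. At P6 0 of 6 genes had groups that did not overlap, against 3.04% of 15322 genes with every CompE library higher and 4.14% with every one lower. With genes called where the adjusted p did not exceed 0.01 and the change was 2-fold or more, 5 of the 6 were called higher at P0 (all but Hhatl), where 0.238% of all genes were, and 6 of 6 in the fit with the replicate pairs as a block, where 0.684% were (and 1.51% were called lower). At P6 0 of 6 were called by edgeR, where 0% of all genes were called in either direction and 289 had an unadjusted p under 0.05, while DESeq2 called 11 genes and none of the 6. The median log2 difference of the 6 was 1.98 at P0, beside 0.01 over all genes, and 0.10 at P6, beside 0.00 over all genes. For the interaction of age and treatment the log2 values ran from -2.45 (Hhatl) to -1.35 (Mfi2), with a median of -1.86 beside 0.02 over all 17090 genes. 0 of 6 were called there, where 0% of all genes were called and 811 had an unadjusted p under 0.05. With the pairs as a block 5 of 6 were called (all but Nipal4) where 0.0527% of genes were called lower and 0.041% higher. These counts follow from how the genes were chosen, and nothing is read from them.

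**Figure D2:**
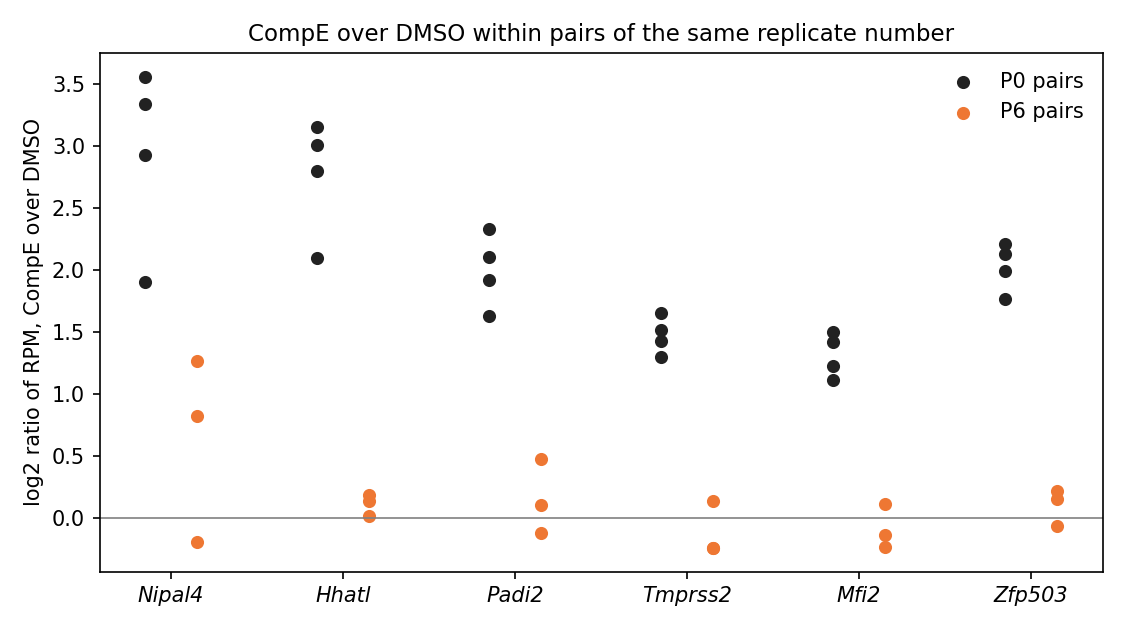
Log2 ratio of RPM, CompE over DMSO (y axis), in each pair of libraries of one replicate number for the 6 genes (x axis), with the 4 P0 pairs in black and the 3 P6 pairs in orange. The P0 pairs lie between 1.11 and 3.56 and the P6 pairs between -0.25 and 1.27, and only Nipal4 has a P6 pair above 0.5.

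The ages were compared over both treatments, in a fit on all 14 libraries of the mean of the P6 groups against the mean of the P0 groups. The 8 P0 libraries of this fit are also those on which the genes were selected, high with CompE and low with DMSO, so the values of the 6 genes are again a description with no p-value. By edgeR's quasi-likelihood test 4 of the 6 were called higher at P6 and 1 lower, where 5.61% of 17090 genes were called higher and 6.48% lower, and nothing is read from these counts. The median log2 difference of the 6 was 1.33, beside -0.05 over all genes. Age and batch cannot be told apart here, since the ages shared no batch. Markers of the sorted SCs also differed between the ages. Of the 12, Sox2, Jag1, Prox1, Fgfr3 and Matn4 were called lower at P6, 5 genes, beside 6.48% of all genes. Fabp7 (not when pairs were averaged), Gjb2 and Gjb6 were called higher, 3 genes, beside 5.61% of all genes. The part of the cells sorted in the age values of the 6 genes was not tested.

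Hhatl had the largest age difference of the 6, a log2 difference of 3.84 (SE 0.290), with every P6 library above every P0 library. Tmprss2 followed at 1.58 (SE 0.146), also with all P6 libraries above all P0 libraries. Padi2 had a log2 difference of 1.38 (SE 0.136), although its P0 CompE libraries reached into the P6 range. In the 14 fits that left out 1 library the values ran from 3.71 to 4.12 for Hhatl. They ran from 1.47 to 1.67 for Tmprss2 and from 1.29 to 1.47 for Padi2. When pairs were averaged first they were 3.98, 1.58 and 1.37, all again a description.

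Mfi2 had a log2 difference of 1.28 (SE 0.212), and 1.22, no longer called, when each pair was averaged and fitted by limma over 7 pairs, where 3.66% of genes were called higher and 4.23% lower. Zfp503 had a log2 difference of -1.03 (SE 0.239), and -1.04, not called, over pairs. Its value fell short of a 2-fold change in 7 of the 14 fits without 1 library (those without P0 CompE replicate 4, P0 DMSO replicates 1, 3 or 4, P6 CompE replicate 2 or P6 DMSO replicates 2 or 3), and was -0.98 without the replicate 3 pair at P6. The mean level of Zfp503 with DMSO was 7.89 RPM at P0 and 7.06 RPM at P6, and only its P0 CompE libraries, high by the choice of the gene, stood apart at a mean of 31.7 RPM. Nipal4 had a log2 difference of 0.19 (SE 0.317) and was not called.

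In DMSO alone the genes differed in how far they stood apart between the ages. All but Zfp503, 5 of the 6, had every P6 DMSO library above every P0 DMSO library, as did 12.4% of all genes tested. Low P0 DMSO levels are part of how the genes were selected, so nothing is read from this count. The ratios of mean RPM, P6 DMSO over P0 DMSO, were 32.3 for Hhatl, 4.76 for Tmprss2, 4.68 for Padi2, 3.71 for Mfi2 and 2.21 for Nipal4. Zfp503 was the exception, with a ratio of 0.894 and overlapping libraries. The P0 difference with CompE was 6.21-fold for Hhatl, 2.76-fold for Tmprss2, 4.04-fold for Padi2, 2.45-fold for Mfi2 and 7.95-fold for Nipal4 on the same scale, and since both ratios divide by the P0 DMSO libraries no relation between them is given.

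The level with CompE at P0 differed among the genes when set against that of SCs cultured with DMSO at P6. For Padi2 the mean P6 DMSO level was 1.16 times the P0 CompE level and for Mfi2 1.52 times, with overlapping libraries in both. For Tmprss2 it was 1.72 times and for Hhatl 5.21 times, with no overlap, so their P0 CompE libraries lay under the P6 DMSO libraries. For Nipal4 the P6 DMSO level was 0.278 and for Zfp503 0.223 of the P0 CompE level, with no overlap. Their P0 CompE libraries thus lay above the P6 DMSO libraries. No test was run on these ratios because the P0 CompE libraries chose the genes.

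**Figure D3:**
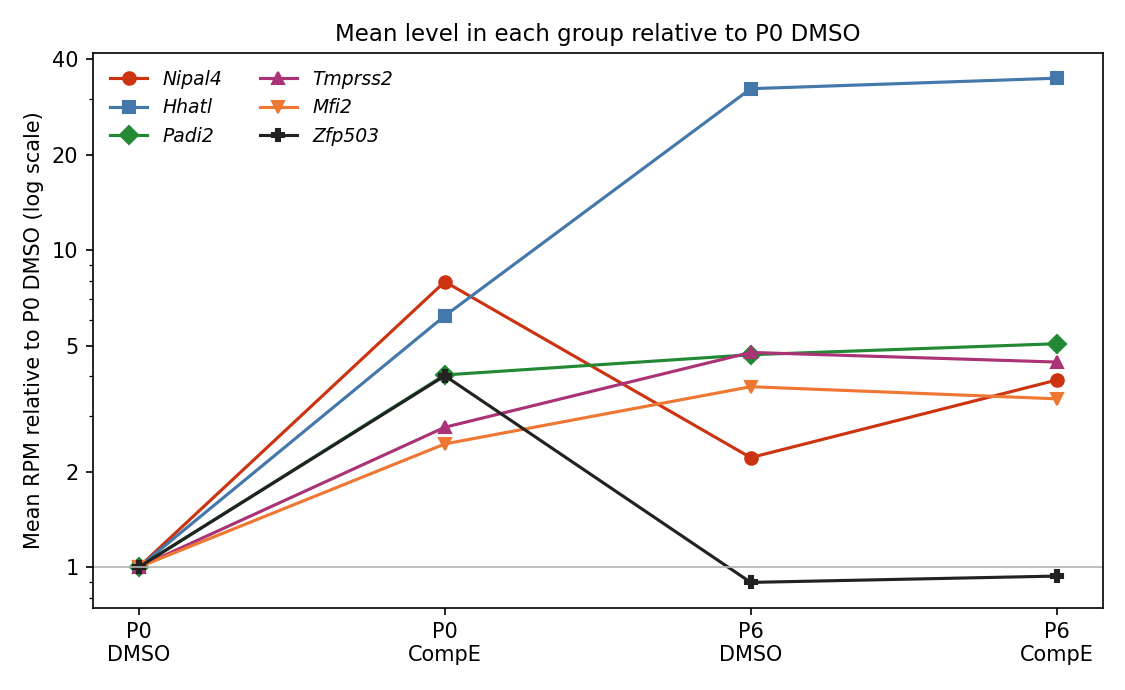
Mean RPM of each of the 6 genes relative to its mean in P0 DMSO libraries, on a log scale (y axis), in the 4 groups (x axis), with lines joining the values of 1 gene. In P6 DMSO libraries Hhatl lies at 32.3 times its P0 DMSO level, Padi2, Tmprss2 and Mfi2 at 3.71 to 4.76 times, Nipal4 at 2.21 times and Zfp503 at 0.894 times.

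Levels between genes were compared as RPKM, RPM divided by the merged exon length in units of 1000 bases, in which a longer transcript does not count more. In P0 DMSO libraries Padi2 led with a mean of 43.1 RPKM, above all others in every library. Mfi2 (6.72 RPKM), Tmprss2 (5.97 RPKM) and Hhatl (3.45 RPKM) followed, and each of these neighbours overlapped the next. Zfp503, at 1.87 RPKM, overlapped Hhatl, and Nipal4, at 0.471 RPKM, lay under all others in every library.

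With CompE at P0 Padi2 again led at 174 RPKM without overlap, and Hhatl was second at 21.4 RPKM, overlapping Tmprss2 (16.5 RPKM) and Mfi2 (16.4 RPKM). In P6 DMSO libraries Padi2 stood at 202 RPKM and Hhatl at 112 RPKM, apart from each other and from Tmprss2 (28.4 RPKM) and Mfi2 (24.9 RPKM), which overlapped. Zfp503 (1.67 RPKM) and Nipal4 (1.04 RPKM) were last and overlapped. In P6 CompE libraries the order was the same for the first 4 genes, and Nipal4 (1.83 RPKM) and Zfp503 (1.75 RPKM) again overlapped.

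Spread between libraries differed as well. In RPM, the coefficient of variation of Hhatl was 63.5% in P0 DMSO libraries and 3.4% in P6 CompE libraries, and that of Nipal4 was 50.6% with CompE at P0 and 60.6% with CompE at P6. Padi2 had the least spread of the 6 in P0 DMSO libraries, at 9.66%.

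Among 5 relatives of Nipal4, 1 was called at P0, in the opposite direction, and the median log2 difference was -0.04. Nipal1, which encodes another magnesium transporter of the NIPA family, fell at P0. It stood at 1.10, 1.75, 1.52 and 0.915 RPM with CompE and at 9.38, 11.8, 5.46 and 10.2 RPM with DMSO, so the treatments were far apart in the direction opposite to that of Nipal4. The log2 difference was -2.85 (SE 0.324, adjusted p = 0.00128, edgeR), where 0.985% of genes were called lower, and it was called in every alternative run at P0. At P6 Nipal1 stood at 2.47, 2.75 and 3.53 RPM with CompE and at 7.47, 3.35 and 2.99 RPM with DMSO, an overlap with a log2 difference of -0.65 (SE 0.499, adjusted p = 1.00), and the interaction was 2.21 (adjusted p = 0.426). Nipa1, Nipa2, Nipal2 and Nipal3 did not pass the test at P0, with log2 differences from -0.06 to 0.21. Nipal2 was higher at P6 over both treatments by a log2 difference of 1.17 (SE 0.110, adjusted p = 3.45e-06).

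**Figure D4:**
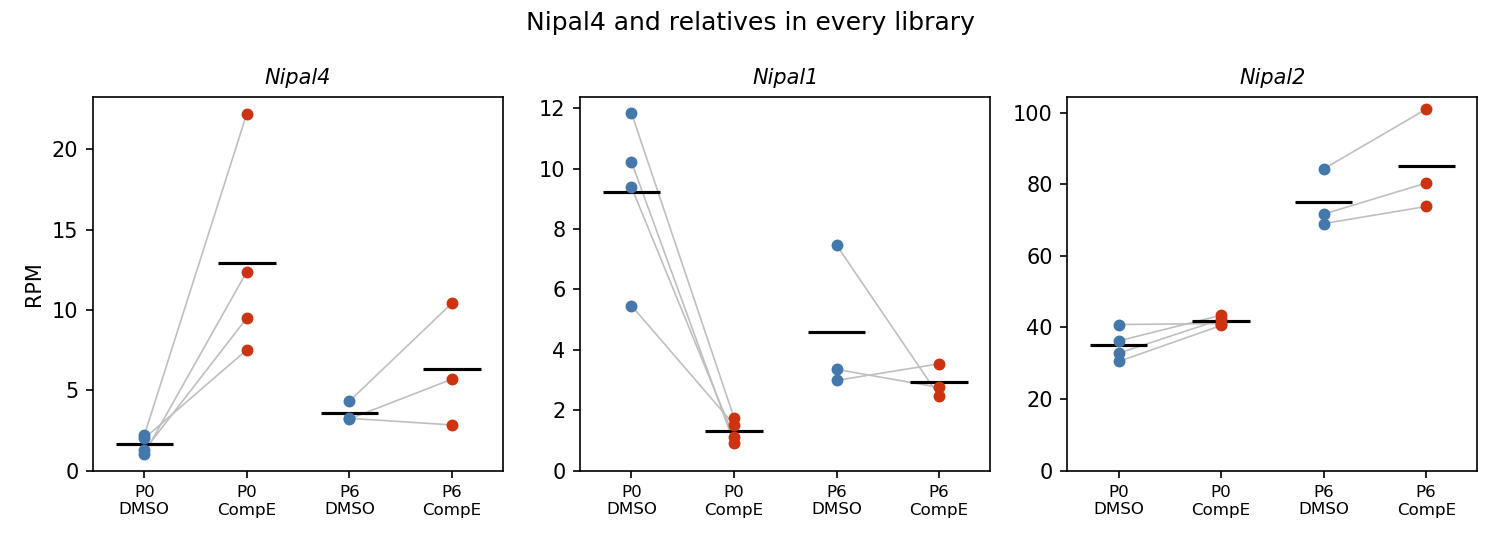
RPM (y axis, from 0) of Nipal4, Nipal1 and Nipal2 in the DMSO (blue) and CompE (red) libraries at P0 and P6 (x axis), 1 point per library, with grey lines joining pairs and black bars at the group means. At P0 Nipal4 is higher and Nipal1 lower in all 4 CompE libraries, while Nipal2 shows its difference between ages.

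Of 12 genes linked to the acylceramides and barrier of the skin, the setting in which Nipal4 is best known, 7 could be tested at P0. Of these 0 passed in either direction (median log2 difference -0.07), where 0.238% of all genes were called higher and 0.985% lower. With shares this low, 0 calls in a short list, here and in the lists below, is not read as a result. The adjusted p-values of Elovl4, Elovl1 and Slc27a4, the most abundant, were 0.427, 0.267 and 0.942 (edgeR). The keratinocyte markers Krt5, Krt14 and Krt1 were under 1 RPM in every library. The summed level of 5 keratinocyte markers was 25.1 to 46.7 RPM with CompE and 61.3 to 77 RPM with DMSO at P0. It was mostly that of Krtdap, and the part of keratinocytes in the Nipal4 values was not tested.

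Among the relatives of Hhatl 0 of 9 tested MBOAT genes passed at P0, where 0.238% of all genes were called higher and 0.985% lower. Soat1, which esterifies cholesterol, had a log2 difference of 1.00 at P0 (SE 0.309, adjusted p = 0.142) and was higher at P6 over both treatments, by 2.95 (SE 0.253, adjusted p = 1.45e-06). Mboat2 and Lpcat3, the other abundant genes of the list, had log2 differences of -0.13 and 0.34 at P0. Of 19 hedgehog pathway genes, among which Hhatl is usually discussed, 14 could be tested at P0. Of these 0 passed, beside the same shares of 0.238% and 0.985% over all genes. The ligands Shh and Ihh, the inhibitor Hhip and the target Gli1 were under 1 RPM in every library. The ligand Dhh was at 2.54 to 11.5 RPM at P0 and 3.83 to 18.2 RPM at P6, and Ptch1, a receptor and target, at 49.3 to 84.0 RPM at P0 and 15.1 to 51.9 RPM at P6. Gli2, a transcription factor of the pathway, came nearest with a log2 difference of 1.20 (SE 0.204, adjusted p = 0.0103), its libraries at 19.1 to 27.1 RPM with CompE and 7.45 to 12.8 RPM with DMSO, and it had a log2 difference of -0.24 at P6.

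Gas1, Smo and Boc, the most abundant of the list, had log2 differences of 0.02, -0.14 and -0.41 at P0. Ptch1, Cdon, Gas1, Kif7 and Gli2 were lower at P6 over both treatments, 5 of 15 tested genes, where 6.48% of all genes were called lower, with log2 differences from -1.59 (Gli2) to -1.10 (Cdon). Scube2, a factor that helps to release hedgehog ligands, was higher by 2.08 (SE 0.244, adjusted p = 2.31e-05), 1 of 15, where 5.61% of all genes were called higher. The same 6 genes passed when pairs were averaged, where 4.23% of all genes were called lower and 3.66% higher. Striated muscle, where Hhatl is best known, was checked by 6 markers, of which Acta1, Ckm, Myl1, Tnnt3 and Myog were under 1 RPM in every library. The 6 markers summed to at most 3.94 RPM at P0 and 12.5 RPM at P6, the highest in P6 DMSO replicate 3.

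Padi2 was the one abundant peptidylarginine deiminase. Padi1, Padi3, Padi4 and Padi6 together held 1.04 to 1.85 RPM with CompE and 0.776 to 1.40 RPM with DMSO at P0. Of the 2 that could be tested there (Padi1 and Padi4) 0 passed, where 0.238% of all genes were called higher and 0.985% lower. Padi4 was higher at P6 over both treatments (log2 difference 3.14, SE 0.572, adjusted p = 0.000728), but not when pairs were averaged (adjusted p = 0.0206), and its P6 libraries ran from 0.720 to 14.0 RPM.

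Of 16 other type II transmembrane serine proteases 9 could be tested at P0. Of the 16, 7 were under 1 RPM in every library. Tmprss4 was in both sets and Tmprss11f in neither. Of the 9 tested 0 passed, where 0.238% of all genes were called higher and 0.985% lower. Tmprss3, a protease whose loss causes deafness, had a log2 difference of 0.12 at P0 (adjusted p = 0.762), St14 (matriptase) of 0.05 (adjusted p = 0.939) and Tmprss6 of 0.44 (adjusted p = 0.165). The inhibitors of such proteases, Spint1 and Spint2, had log2 differences of -0.09 and 0.14. With age Tmprss9 was higher by 5.56 (adjusted p = 5.68e-05) and Corin lower by a log2 difference of -4.27 (adjusted p = 8.26e-05), while the P6 libraries of Tmprss9 ran from 17.0 to 621 RPM.

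For Mfi2, 13 of 16 genes of transferrins and iron handling could be tested at P0, with a median log2 difference of -0.13. Of these 0 passed, where 0.238% of all genes were called higher and 0.985% lower. The ferritin chains Ftl1 and Fth1, the most abundant, had log2 differences of -0.03 and 0.05, and Ireb2, an iron sensor, of 0.14. Over both treatments Trf, Steap3, Ftl1, Hamp and Ncoa4 were higher at P6, 5 of 15, where 5.61% of all genes were called higher. With pairs averaged Ftl1 and Ncoa4 remained, 2 of 15, where 3.66% were called higher, while Trf and Steap3 were also not called without the replicate 3 pair at P6. Ncoa4, which delivers ferritin for breakdown, was higher by a log2 difference of 1.99 (SE 0.0948, adjusted p = 5.01e-09), at 7.89 to 9.56 RPM at P0 and 28.5 to 37.8 RPM at P6. The melanocyte markers Tyr, Mlana and Tyrp1 were under 1 RPM in every library, and the 5 melanocyte markers together held 6.35 to 10.8 RPM with CompE and 7.68 to 11.6 RPM with DMSO at P0.

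For Zfp503, the other NET gene Zfp703 had a log2 difference of -0.64 at P0 (SE 0.265, adjusted p = 0.319) and of -0.08 at P6. Of 7 genes of the NET and Groucho list 0 passed at P0, at P6 or between the ages. Over all genes 0.238% were called higher and 0.985% lower at P0, and 0% at P6. Between the ages 5.61% were called higher and 6.48% lower, so nothing is read from 0 of 7. The most abundant of the list, Aes, Tle1 and Tle4, had log2 differences of -0.17, -0.35 and 0.22 at P0.

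Likeness over all 14 libraries was measured as the root mean square difference of log2 CPM after each gene was centred on its own mean, among 13870 genes with at least 1 CPM on average. By this measure Padi2, Mfi2 and Tmprss2 were close to each other, at 0.40 for Padi2 and Mfi2, 0.41 for Padi2 and Tmprss2 and 0.43 for Mfi2 and Tmprss2. The same libraries chose the members by their difference with CompE at each age. Likeness between members is therefore partly built in, and nothing is read from it. Hhatl and Zfp503 were the farthest pair, at 2.59. Nearest to Padi2 among all these genes were Plcd3 (0.25) and then Mfi2 and Tmprss2, while the 3 genes nearest to each of the other members were no members. Nearest to Tmprss2 were Lad1 (0.30), Mapkapk3 (0.34) and Plcd3 (0.37), and nearest to Mfi2 were Lrch1 (0.27), Dleu2 (0.29) and Ccdc13 (0.30).

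Nipal4 was followed most closely by Tex14 (0.50), Rasd1 (0.67) and Pxmp2 (0.73), and Zfp503 by Lrrc73 (0.43), Spsb4 (0.44) and Lhfpl2 (0.44). Hhatl had the most distant neighbours, Odf3l2 (0.72), Tlr4 (0.83) and Scnn1b (0.84). The libraries are shared by all these genes, so the distances describe these 14 libraries.

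Markers of HCs, of mesenchyme and of the sorted SCs themselves that moved with treatment at P0 stand beside all 6 genes. The summed level of 21 HC markers was 1638 to 2879 RPM with CompE and 813 to 1880 RPM with DMSO, which overlapped between groups but was higher with CompE in 4 of 4 pairs. Of the 21, 0 were called higher without the block, where 0.238% of all genes were, and 3 (Atoh1, Pou4f3 and Hes6) with it, where 0.684% were. The 8 mesenchyme markers summed to 1216 to 1360 RPM with CompE and 936 to 1158 RPM with DMSO, with no overlap, while 7 of the 8 had log2 differences under 0. Most of that sum was Lum, at 941 to 1139 RPM with CompE and 688 to 845 RPM with DMSO. Lum was the only 1 of the 8 above 0, with a log2 difference of 0.44 (SE 0.126), and was not called. The 12 SC markers summed to 7220 to 7566 RPM with CompE and 7700 to 11110 RPM with DMSO, lower with CompE in 4 of 4 pairs. Of the 12, Fabp7 was called lower without the block, where 0.985% of all genes were, and Jag1 and Fabp7 with it, where 1.51% were. The part of HCs, of mesenchyme or of changes within SCs in the values of the 6 genes was not tested.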

How the data were processed

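Poly(A) RNA of sorted GFP-positive cells was sequenced from 14 libraries made with the SMART-Seq v4 PLUS kit, which carries no molecular identifiers. Per the submitters' processing notes, reads were trimmed with Trim Galore 0.6.0 and cutadapt 1.15 and mapped with STAR 2.7.0f to mm10 (GRCm38). The authors deposited raw counts per gene, one table for each age, without normalization. Which annotation release was counted, and whether strand was used, is not given in the sources used here.

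Groups, replicate numbers and batches came from the sample labels. The 6 genes, the gene lists and the tests were chosen with earlier results of these data known. RPM is a count divided by the library total, and RPKM also divides by the merged exon length of GENCODE GRCm38 gene models. Counts were fitted with edgeR 4.0.16 in R 4.3.3 (quasi-likelihood, TMM, filterByExpr at a minimum count of 10), each age alone and all 14 libraries for the interaction and the age comparison. A call needed a Benjamini-Hochberg adjusted p no higher than 0.01 and a change of 2-fold or more. Alternatives were DESeq2 1.42.0, its size factors within edgeR, no filter, leaving out each library, and a replicate block, which for the age comparison was limma 3.58.1 on log2 CPM averaged within pairs. Leaving out the replicate 3 pair at P6 was added after seeing the data. Named were the 6 genes, called genes and the 3 most abundant genes of the lists of relatives, and the 3 nearest genes by likeness. Gli2, Zfp703, Krtdap and the marker genes named at low levels were singled out after their values were seen.

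The pairs share a batch in the labels, and deviations of the paired libraries from their group means correlated by 0.16 to 0.50 at P0 and by 0.26 to 0.62 at P6. No 2 replicates agreed within sampling noise (their counts gave a chi-square of 20.5 or more for each degree of freedom). The fits were tested on simulated counts with 200 changed genes, each changed by more than the 2-fold limit of a call. No batch or pair effects were simulated, and recovery of smaller changes was not measured. Of these 73.5% were recovered for P0, 49.5% for P6, 42.5% for the interaction and 74% for age. Calls of 0 genes at P6 or for the interaction therefore do not show that no gene changed. Library totals were 19415066 to 44430063, and the spread between libraries is part of every standard error given.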

Additional observations from a re-analysis of the deposited data

How the results depend on the processing

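The direction of the 6 genes at P0 was the same under the 4 other settings and in the 8 fits without 1 library. The genes were chosen for this direction, so nothing is read from it. Among all genes, 195 were called at P0, 425 with DESeq2 (29.18% higher, against 19.49%), 350 with the replicate block (31.14% higher) and 80 to 225 without 1 library, the fewest without P0 CompE replicate 3, of which 2 to 6 were members. Without P0 CompE replicate 4, P0 DMSO replicate 2 or P0 DMSO replicate 4 the counts were 84, 111 and 113. At P6 0 were called, 11 with DESeq2, and 0 to 0 without 1 library. For the interaction 0 were called, 32 with DESeq2 (3 members), 1 with no filter on low counts, 16 with the replicate block (5 members) and 0 to 2 without 1 library. For age 2065 were called, 1348 with the pairs averaged as the replicate block, of which 1309 were shared, 1791 to 2208 without 1 library, and 2425 without the replicate 3 pair at P6 (34.56% higher, against 46.39%, and 4 members). The age difference of Nipal4 was 0.19 and turned to -0.11 without P6 CompE replicate 2, and was 0.44 without the replicate 3 pair at P6, none of them called. Without P0 DMSO replicate 3 the interaction value of Hhatl was -3.00. The cause of these changes was not tested. The replicate block changed no other call on a member than those given beside its value. Nipal4 had the fewest reads at P0, 33 to 80 counts in each P0 DMSO library.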
